A study of Homo sapiens with 6 samples.

Results

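The mesenchymal transition genes described here are 10 genes chosen by symbol: the transcription factor genes SNAI1, SNAI2, ZEB1 and TWIST1, the intermediate filament gene VIM, the cadherin gene CDH2, and the matrix genes FN1, SPARC, COL1A1 and TGFBI. All 10 were among the 13271 genes listed for 5637, a human bladder cancer cell line grown in DMEM/F-12 with serum. MAT1A libraries 1, 2 and 3 came from cells transfected with a MAT1A expression plasmid, and control libraries 1, 2 and 3 from cells transfected with an empty vector. RNA was taken 48 h after transfection. MAT1A encodes the liver form of methionine adenosyltransferase, the enzyme that makes S-adenosylmethionine. Both groups therefore share the cell line, the lipid reagent and a transfected vector, and the expression is transient rather than that of a selected clone. No label states whether libraries of a group were grown and transfected independently. The p-values below thus compare the groups with a library-to-library spread that may be technical.

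In epithelial-mesenchymal transition, epithelial cells loosen their junctions and take on a migratory form with a vimentin-rich cytoskeleton and a fibrous matrix. The Snail and ZEB zinc finger proteins and the Twist helix-loop-helix protein bind short E-box sequences and repress junction genes such as CDH1, the gene of E-cadherin, often in response to transforming growth factor beta. In bladder cancer the program is best known from invasive tumours, and many cultured carcinoma lines keep epithelial and mesenchymal genes on together.

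Values are the authors' deposited reads per gene on a scale close to CPM (reads per gene adjusted to a common library total), called the value below. The 3 libraries of each group corresponded to 18.7 to 21.6 M reads in the MAT1A group and 17.4 to 20.7 M reads in the control group. MAT1A itself had values of 1805, 1834 and 1917 in MAT1A libraries 1, 2 and 3, against 1.09, 0.253 and 4.54 in control libraries 1, 2 and 3. Epithelial identity genes were abundant throughout: EPCAM averaged 343.7 in MAT1A and 340.0 in control libraries, and KRT5 averaged 1918 in MAT1A and 1539 in control libraries. Of the 10 identity genes limma called 6 higher and 1, GATA3, lower, against 4.01% and 7.4% of all tested genes. The 6 became 3 without control 1, without control 3 or without MAT1A 1, and 2 with the muscle level as a covariate. Higher calls over all genes also dropped in these fits. They numbered 516 in the reported fit, 234 without control 1, 225 without control 3, 318 without MAT1A 1 and 83 with the covariate. Of the leukocyte markers only LYZ was listed, at 0.0466 to 0.916 in MAT1A and 0.505 to 1.66 in control libraries. The library control 1 stood apart in genes of skeletal muscle. The 29 listed muscle markers summed to 204.4, 147.7 and 134.4 in MAT1A libraries 1, 2 and 3, against 723.1, 296.1 and 213.1 in control libraries 1, 2 and 3. Every MAT1A library was thus below every control library in this sum, which includes TNNT1 at 70.5 to 78.8 in MAT1A and 77.3 to 86.4 in control libraries. Of 26 muscle markers tested, 22 were called lower in MAT1A libraries, against 7.4% of all tested genes. Without control 1 the number was 15, without MAT1A 3 it was 15, and with a filter at a value of 5 it was 10. That stricter filter also left fewer muscle markers to test. Over all genes 952 were called lower in the reported fit, 589 without control 1, 989 without MAT1A 3 and 826 with the stricter filter. CASQ1, at 0.326 to 0.755 in MAT1A libraries, passed the filter, a value of 1 in 3 or more libraries, only through its control values. Its place among the tested genes thus already required a difference. Others, such as MYH8 and MYLPF, reached a value of 1 in only 1 MAT1A library. Since the muscle sum moves with the groups, its part in a difference between them was not tested, and results are also given without control 1 and with the mean log2 muscle level as a covariate.

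Of the 10 genes, 5 fell in the MAT1A libraries and 0 rose, nor did any rise at an unadjusted p under 0.05 (limma on log2(value + 1), Benjamini-Hochberg adjusted p under 0.05 over 12866 tested genes). Across all tested genes, 7.4% were called lower and 4.01% higher, 11.4% in all. The 5 were SNAI2, VIM, ZEB1, COL1A1 and CDH2. ZEB1 passed the filter on low values only through its control values, so its place among the tested genes already required a difference. The other members, SNAI1, TWIST1, FN1, SPARC and TGFBI, were not called. The median log2 change was -0.20 over the 10 genes and 0.004 over all tested genes. With the replicate number as a block the same 5 were called, against 18% of all tested genes (7.57% higher, 10.4% lower). With the muscle covariate, under which 3.02% of all genes were called and 2.37% were called lower, VIM and SNAI2 remained called and the other 3 did not.

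**Figure D1:**
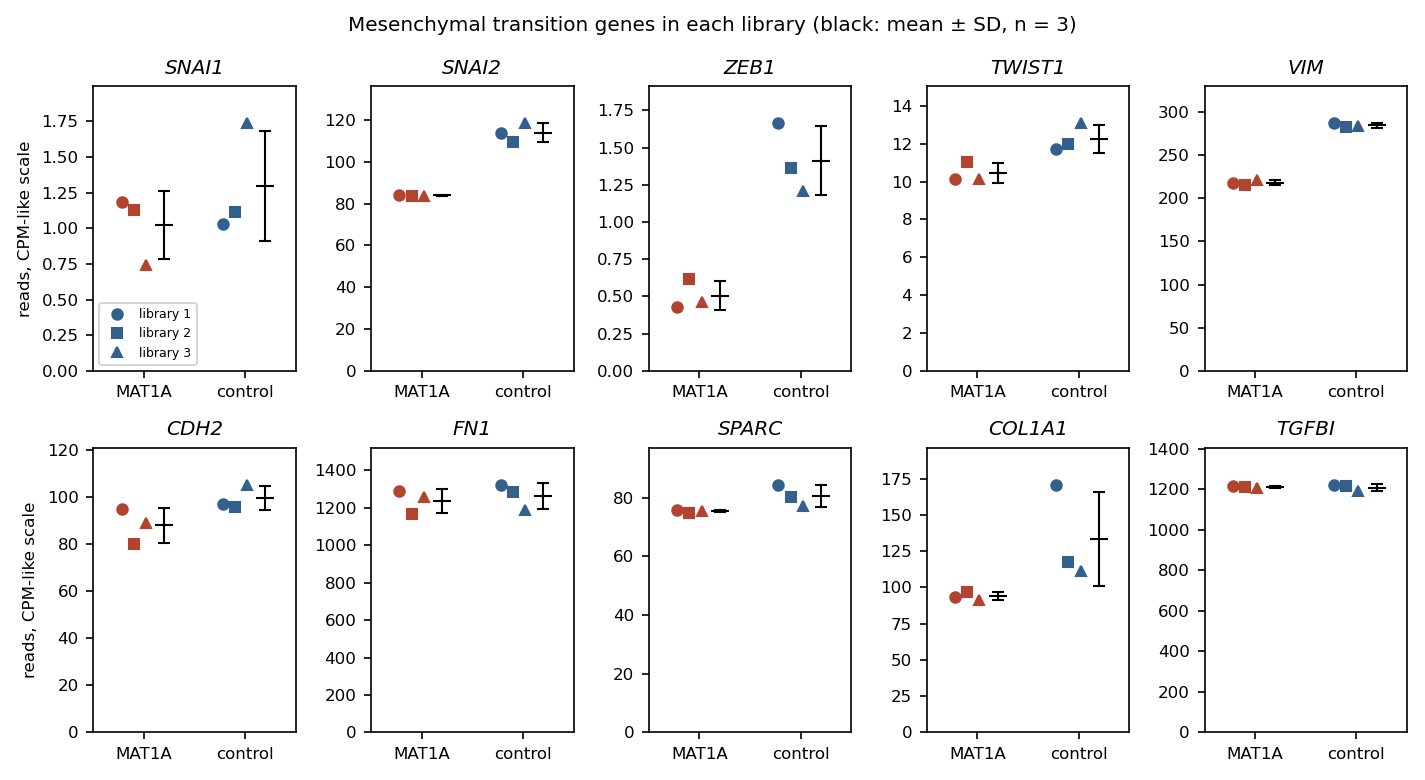
Values of the 10 genes in each library (y axes, reads on the deposited CPM-like scale, linear from 0), with 1 point per library (red MAT1A, blue control), circles, squares and triangles for libraries 1, 2 and 3, and mean ± SD over 3 libraries in black. SNAI2 and VIM lie in tight, separate groups, COL1A1 is highest in control 1 (170.9), and FN1 and TGFBI overlap.

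SNAI2 encodes Slug, a Snail-family repressor that is also common in basal epithelial cells, and it was the most abundant regulator of the 4. The gene occupies bases 48917604 to 48921740 of chromosome 8 (GRCh38, minus strand), and its value was 84.1, 83.7 and 83.9 in MAT1A libraries 1, 2 and 3, against 113.8, 109.5 and 118.5 in control libraries 1, 2 and 3. The groups did not overlap, as held with MAT1A lower for 15.6% of all tested genes. The means were 83.9 ± 0.212 in MAT1A and 113.9 ± 4.51 in control libraries (SD, n = 3 each), 26.3% lower. This is a log2 change of -0.44, standard error 0.04 (limma adjusted p = 4.71e-07). Leaving out any library kept the log2 change between -0.46 and -0.41 and the call, and the muscle covariate gave -0.45 (limma adjusted p = 0.000174).

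SNAI1, which encodes Snail, a repressor of the same family, was barely detected. It had values of 1.19, 1.13 and 0.746 in MAT1A libraries 1, 2 and 3, from 22, 22 and 16 reads, against 1.03, 1.11 and 1.74 in control libraries 1, 2 and 3, where 18, 22 and 36 reads were counted. The groups overlapped, and the highest and the lowest of the 6 values were those of control 3 and MAT1A 3. The log2 change was -0.18 with a 95% interval of -0.50 to 0.14 (limma adjusted p = 0.491), and no difference was detectable at this depth. The value of SNAI2 was 71.0 to 112 times that of SNAI1 in the MAT1A libraries and 68.2 to 110.0 times in the control libraries, before any allowance for length.

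ZEB1, whose protein represses CDH1 and is itself kept low by microRNAs of epithelial cells, was the scarcest of the 10 in MAT1A libraries. In control libraries SNAI1 had the lower mean value, 1.29. The counts behind ZEB1 were 8, 12 and 10 reads in MAT1A libraries 1, 2 and 3, against 29, 27 and 25 reads in control libraries 1, 2 and 3. Every MAT1A library was below every control library, as for 15.6% of all tested genes. The values averaged 0.505 ± 0.0986 in MAT1A and 1.41 ± 0.233 in control libraries (SD, n = 3 each), a ratio of means of 0.358. On the log2 scale it fell by 0.68, standard error 0.14 (limma adjusted p = 0.00388). All MAT1A values of ZEB1 were under the filter value of 1, so it was tested only because its control values were higher. The scale compresses so low a gene: with a pseudocount of 0.1 the log2 change was -1.32 (adjusted p = 0.00269). Under the muscle covariate the call was lost (-0.55, adjusted p = 0.205), and so it was when MAT1A 1 and control 1 were left out together (-0.57, adjusted p = 0.0871). It spans positions 31318495 to 31529814 of chromosome 10 on the plus strand and shares 366 bases of exon with the antisense gene ZEB1-AS1, from which unstranded reads cannot be told apart. ZEB1-AS1 averaged 0.675 in MAT1A and 0.713 in control libraries and was too low to be tested.

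TWIST1, a helix-loop-helix regulator of mesoderm and of cell movement, was intermediate in level. Its value was 10.1, 11.05 and 10.1 in MAT1A libraries 1, 2 and 3, against 11.7, 11.98 and 13.1 in control libraries 1, 2 and 3. Every MAT1A library thus lay below every control library, as for 15.6% of all tested genes. The log2 change of -0.21 had a 95% interval of -0.37 to -0.05 before adjustment and did not pass over all genes (limma adjusted p = 0.0818; 0.0603 with the replicate number as a block). On simulated libraries of this size with 12825 genes, a 1.2-fold difference was called for 46.3% of changed genes. For a 1.5-fold difference the share was 100%. Each share pools 67 changed genes and is not split by level. The simulation gave every gene the same spread between libraries beyond counting error, and changed far fewer genes than were called in the data. The shares thus do not give the chance of calling such a difference for TWIST1, and may overstate or understate it. TWIST1 was 14.9% lower in MAT1A libraries.

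VIM encodes vimentin, the intermediate filament protein that gives mesenchymal cells their cytoskeleton. The gene occupies positions 17228259 to 17237593 of chromosome 10 on the plus strand. It had values of 217.3, 215.0 and 221.1 in MAT1A libraries 1, 2 and 3, against 286.7, 281.8 and 283.5 in control libraries 1, 2 and 3. The 3 libraries of each group lay within a few percent of each other and the groups were far apart. The means were 217.8 ± 3.07 in MAT1A and 284.0 ± 2.52 in control libraries (SD, n = 3 each), 23.3% lower, a log2 change of -0.38 with standard error 0.03 (limma adjusted p = 1.31e-07). It was -0.37 without control 1 and -0.37 with the muscle covariate (adjusted p = 0.000132), so it was as large without the library highest in muscle genes. The antisense gene VIM-AS1 overlaps 641 bases of VIM exon, and unstranded reads there cannot be told apart. VIM-AS1 averaged 0.832 in MAT1A and 1.13 in control libraries (log2 change -0.23, adjusted p = 0.372). It was counted from 9 to 21 reads in MAT1A and 16 to 27 reads in control libraries, where VIM had 4032 to 4743 and 4996 to 5874 reads.

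CDH2 encodes N-cadherin, the adhesion molecule whose gain at the cost of E-cadherin is called the cadherin switch. Its value was 94.9, 80.2 and 88.9 in MAT1A libraries 1, 2 and 3, against 97.1, 95.8 and 105.2 in control libraries 1, 2 and 3. The groups did not overlap, as held with MAT1A lower for 15.6% of all tested genes. The highest MAT1A value, 94.9, lay close to the lowest control value, 95.8. The means were 88.0 ± 7.39 in MAT1A and 99.4 ± 5.10 in control libraries (SD, n = 3 each), a log2 change of -0.18 with standard error 0.05 (limma adjusted p = 0.0410; 0.00322 with the replicate block). This call was lost without MAT1A 2 (log2 change -0.11, adjusted p = 0.116), without control 3 (-0.13, adjusted p = 0.203), without control 1 (-0.19, adjusted p = 0.0792) and with the muscle covariate (-0.18, adjusted p = 0.308).

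CDH1 moved the other way. It had values of 212.9, 212.7 and 222.6 in MAT1A libraries 1, 2 and 3, against 193.0, 194.4 and 194.7 in control libraries 1, 2 and 3, with every MAT1A library above every control library, as for 14.7% of all tested genes. CDH1 rose by 0.15 on the log2 scale, standard error 0.03 (limma adjusted p = 0.00386). With the muscle covariate the log2 change was 0.14 and was not called (adjusted p = 0.194). The value of CDH2 divided by that of CDH1 was 0.446, 0.377 and 0.400 in MAT1A libraries 1, 2 and 3, against 0.503, 0.493 and 0.540 in control libraries 1, 2 and 3. For VIM over CDH1 the ratio averaged 1.01 ± 0.014 in MAT1A and 1.46 ± 0.0192 in control libraries (SD, n = 3 each). These ratios are descriptions built from genes tested above and were given no test of their own.

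Promoter windows of the 3 called members for which RefSeq windows on GRCh38.p14 were at hand are shown, because the regulators among the 10 act on E-boxes near start sites. Each window runs from 250 bases before to 50 bases after a start site, 5′ to 3′ on the strand of the gene, and capitals mark every CANNTG, the general E-box. VIM is at chr10:17227991-17228290 on the plus strand, ZEB1 at chr10:31318167-31318466 on the plus strand and CDH2 at chr18:28177081-28177380 on the minus strand.
VIM: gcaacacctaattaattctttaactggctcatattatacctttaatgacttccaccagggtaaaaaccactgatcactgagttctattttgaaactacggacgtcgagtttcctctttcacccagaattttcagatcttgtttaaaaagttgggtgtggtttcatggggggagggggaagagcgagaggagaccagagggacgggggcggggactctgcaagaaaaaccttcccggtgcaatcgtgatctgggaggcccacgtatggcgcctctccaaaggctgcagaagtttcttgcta
ZEB1: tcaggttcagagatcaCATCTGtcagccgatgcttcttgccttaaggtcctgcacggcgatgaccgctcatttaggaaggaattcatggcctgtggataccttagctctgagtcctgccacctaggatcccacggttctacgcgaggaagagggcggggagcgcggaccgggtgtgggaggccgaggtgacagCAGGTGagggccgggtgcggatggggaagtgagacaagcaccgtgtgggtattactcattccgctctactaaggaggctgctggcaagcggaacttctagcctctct
CDH2: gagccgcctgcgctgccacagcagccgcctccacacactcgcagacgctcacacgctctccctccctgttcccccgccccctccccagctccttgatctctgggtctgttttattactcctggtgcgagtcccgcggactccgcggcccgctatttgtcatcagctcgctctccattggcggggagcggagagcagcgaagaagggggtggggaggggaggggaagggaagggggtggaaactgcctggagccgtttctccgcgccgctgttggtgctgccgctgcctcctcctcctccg
The ZEB1 window holds a CAGGTG at position -57 and a further E-box at position -234, counted from the start site. The motif at -57 is the E-box form known for Snail and ZEB proteins and a special case of the general one. The shown VIM and CDH2 windows hold no E-box, while a further CDH2 window that is not shown holds at least 1. Of 35116 windows of this length, 68.7% held the general E-box, which reads the same on both strands. The form known for Snail and ZEB proteins was in 20.6% on either strand. ZEB1 has 7 windows in the table, of which the one nearest the annotated gene start is shown, and 4 of them held an E-box. TGANTCA, the AP-1 motif, was in 7.7% of all windows and in the CDH2 window that is not shown, and in no other window of the 6 members with one (VIM, ZEB1, CDH2, FN1, SPARC and TGFBI). These matches are letters in a window and not evidence of binding.

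The matrix genes did not move as a group. TGFBI, which encodes a secreted adhesion protein induced by transforming growth factor beta, was the flattest of the 10. Its value was 1214, 1211 and 1208 in MAT1A libraries 1, 2 and 3, against 1222, 1213 and 1189 in control libraries 1, 2 and 3. The 3 MAT1A values sat inside the range of the control values. Its log2 change was 0.004 with a 95% interval of -0.055 to 0.063 (limma adjusted p = 0.946), and the sign turned with 2 of the other settings tried.

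FN1, the gene of fibronectin, was also abundant and overlapped between groups. It had values of 1290, 1167 and 1257 in MAT1A libraries 1, 2 and 3, against 1324, 1284 and 1188 in control libraries 1, 2 and 3. The log2 change of -0.03 had a 95% interval of -0.12 to 0.06 (limma adjusted p = 0.683). Without control 1 it was 0.002, and with the muscle covariate 0.07.

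SPARC, which encodes the collagen-binding protein osteonectin, had values of 76.0, 75.0 and 75.5 in MAT1A libraries 1, 2 and 3, against 84.5, 80.2 and 77.3 in control libraries 1, 2 and 3. The groups did not overlap, as held with MAT1A lower for 15.6% of all tested genes. The control values spread more widely, with control 1 the highest. The log2 change was -0.09 (95% interval -0.18 to -0.008; limma adjusted p = 0.151), -0.06 without control 1 and -0.02 with the muscle covariate (adjusted p = 0.928).

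COL1A1 encodes the main chain of type I collagen, a product of fibroblasts and bone cells that some carcinoma lines also make. The gene spans bases 50183289 to 50201632 of chromosome 17 (minus strand), and its value was 93.6, 96.6 and 91.1 in MAT1A libraries 1, 2 and 3, against 170.9, 117.6 and 111.6 in control libraries 1, 2 and 3. The MAT1A libraries were close together, and control 1 stood far above the other control libraries. COL1A1 fell by 0.48 on the log2 scale, standard error 0.10 (limma adjusted p = 0.00534; 1.69e-05 with the replicate block). Without control 1 it was -0.29 and still called (adjusted p = 0.00069), and the muscle covariate ended the call (-0.10, adjusted p = 0.627).

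The spread of COL1A1 among control libraries was shared by other fibrillar collagen genes, chosen for display after their values were seen. COL1A2, the partner chain of type I collagen, was 30.0, 30.7 and 27.7 in MAT1A libraries 1, 2 and 3, against 77.9, 32.7 and 28.9 in control libraries 1, 2 and 3. COL3A1, a type III collagen gene, was 1.35, 1.08 and 1.96 in MAT1A libraries and 10.4, 1.06 and 1.98 in control libraries in the same order. For both, control 1 alone was high and the remaining control values lay beside the MAT1A values. Neither passed (limma adjusted p = 0.166 for COL1A2 and 0.235 for COL3A1). The muscle gene ATP2A1, a calcium pump of the sarcoplasmic reticulum, was 13.8, 5.81 and 5.13 in MAT1A and 80.4, 26.7 and 14.9 in control libraries in that order. It was therefore highest in control 1, and control 2 and control 3 were also above every MAT1A library. Among fibroblast markers other than collagens, ACTA2, an actin gene of smooth muscle and myofibroblasts, was 0.668 to 1.02 in MAT1A libraries, against 2.18, 1.06 and 0.965 in control libraries 1, 2 and 3. FAP, a protease gene of activated fibroblasts, was 0.431 to 0.466 in MAT1A libraries, against 1.03, 0.455 and 0.386 in control libraries 1, 2 and 3. Both were thus highest in control 1, at low levels. The more abundant FBLN1 averaged 246.7 in MAT1A and 243.5 in control libraries, and was highest in MAT1A 2 (264, against 249 in control 1). MMP2 averaged 136.1 in MAT1A and 142.3 in control libraries (145 in control 1). THY1 was 55.8, 58.8 and 54.8 in MAT1A libraries 1, 2 and 3, against 59.9, 65.8 and 60.3 in control libraries 1, 2 and 3. Control 1 was thus the lowest control library for THY1. Of 7 tested fibroblast markers limma called 0, against 4.01% higher and 7.4% lower over all tested genes, so few calls could be awaited. At an unadjusted p under 0.05, 0 were higher and 3 lower, a count with no share over all genes to set it against. With the replicate block 3 were called lower, against 10.4% of all tested genes. The fibroblast genes DCN, LUM, PDGFRA, PDGFRB and POSTN had no row in the table.

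**Figure D2:**
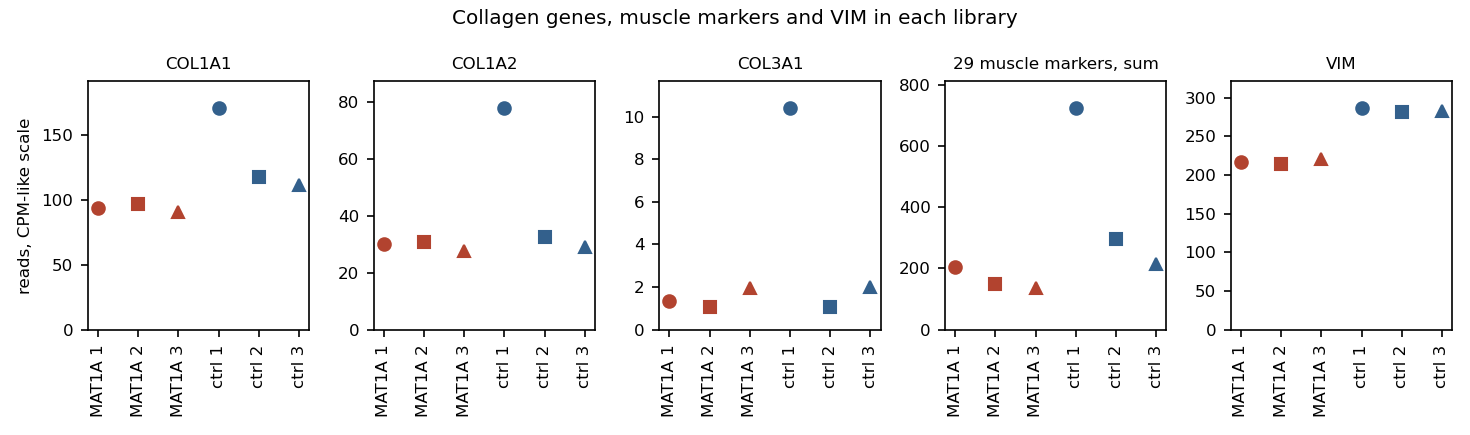
Values of COL1A1, COL1A2, COL3A1, the sum of 29 skeletal muscle markers, and VIM in each library (reads on the deposited CPM-like scale, linear axes from 0; red MAT1A, blue control, 1 point per library). Control 1 is the highest library for the 3 collagens and the muscle sum (723.1), while VIM differs between the groups and hardly among the control libraries.

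**Figure D3:**
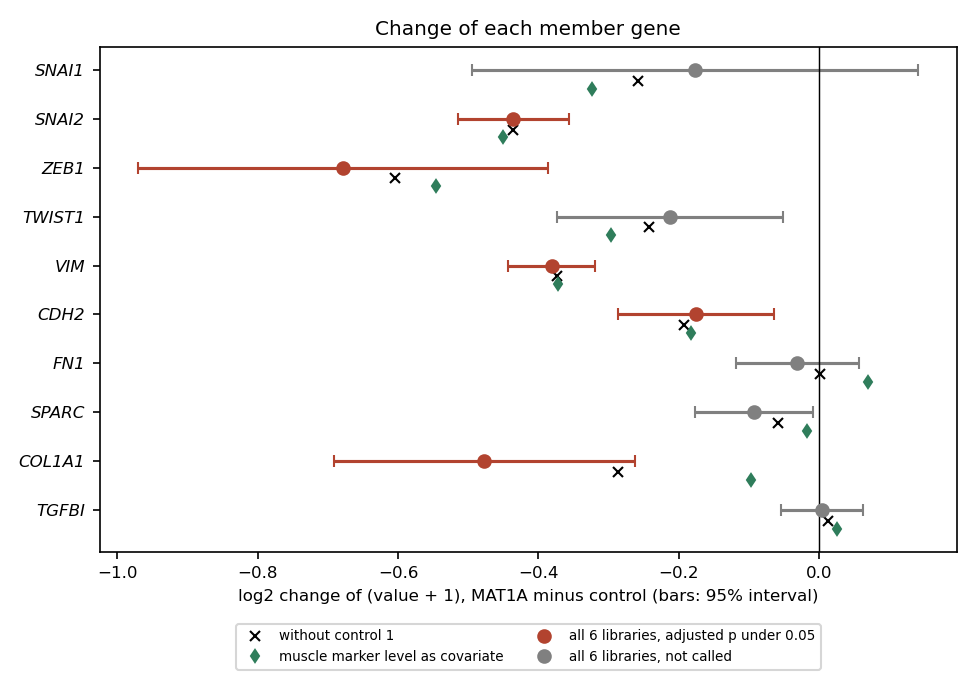
Log2 change of (value + 1), MAT1A minus control, for each gene (x axis), with the 95% interval from all 6 libraries (red called, grey not called), the value without control 1 (crosses) and the value with the muscle marker level as a covariate (diamonds). VIM and SNAI2 keep their position under both, while COL1A1 moves from -0.48 to -0.29 and -0.10.

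Levels can be set against each other only per length. Divided by the merged exon length of each gene in GENCODE 29, the mean value per kb in MAT1A libraries ran from TGFBI at 155 and FN1 at 71.5 through VIM at 42.2, SNAI2 at 24.7, CDH2 at 17.8, SPARC at 15.6, COL1A1 at 9.55 and TWIST1 at 5.13 to SNAI1 at 0.605 and ZEB1 at 0.0583. In control libraries the order was the same, with 155, 73.1, 55.1, 33.6, 20.1, 16.7, 13.6, 6.03, 0.768 and 0.163. SPARC (16.7 ± 0.753) and COL1A1 (13.6 ± 3.33) were neighbours that did not differ beyond their SD in control libraries. Merged exons overstate the length of any single transcript, so these are relative levels only.

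Genes with the profile closest to a member over the 6 libraries were looked for among tested genes with a mean of at least 5, by the root mean square difference of log2(value + 1) centred on each gene's mean. Nearest to VIM were DEAF1 (0.022), SOCS2 (0.032), HCFC2 (0.032) and ARL14 (0.033), with log2 changes of -0.40, -0.38, -0.41 and -0.39. For COL1A1 the nearest genes were farther away, among them PMS2CL (0.127), SLC25A4 (0.137) and STARD4 (0.139). Their log2 changes were -0.30, -0.22 and -0.47 in that order. SLC25A4, which encodes the ADP/ATP carrier typical of muscle, was not called (limma adjusted p = 0.212). FN1 lay nearest to EXOC6 (0.017), NIPAL1 (0.019), SAP30 (0.019) and COMMD3 (0.021), none of which was called. The 6 libraries hold both groups, so a gene picked as close to a member has a similar log2 change by that choice. The changes and calls of these genes are thus descriptions and not results of their own.

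Other transcription factors of the transition fell more often than they rose. Of 14 tested, 7 fell and 2 rose, with a median log2 change of -0.13, against 7.4% lower, 4.01% higher and a median of 0.004 over all genes. Over all 12866 tested genes 589 fell and 234 rose without control 1, 571 fell and 225 rose without control 3, and 305 fell and 83 rose with the muscle covariate, against which the counts of this and the following lists can be read. For these transcription factors, without control 1 the counts were 5 and 2, without control 3 they were 4 and 2, and with the muscle covariate 2 and 1. ZEB2, the paralogue of ZEB1 and likewise a CDH1 repressor, had values of 1.455, 1.285 and 1.119 in MAT1A libraries 1, 2 and 3, against 3.845, 3.487 and 4.054 in control libraries 1, 2 and 3. All control values were thus far above all MAT1A values, where 15.6% of all tested genes had every MAT1A value below every control value. Its log2 change of -1.07 (limma adjusted p = 8.81e-06) was the lowest of the 14 and remained called with the muscle covariate (adjusted p = 0.00246). ETS1, an oncogenic ETS factor, fell by 0.25 on the log2 scale and SOX9, a progenitor factor, by 0.19. The genes that rose encode ID1 (log2 change 0.32) and ID3 (0.23), helix-loop-helix proteins without a DNA-binding region that hold E-box factors inactive. ID1 averaged 270.5 ± 24.1 in MAT1A and 215.7 ± 3.11 in control libraries (SD, n = 3 each). Corepressors and turnover factors of Snail and ZEB proteins stayed close to the median of all genes. Of 22 tested, 0 rose and 1 fell in limma, against 4.01% and 7.4% of all genes. At an unadjusted p under 0.05, 2 were higher and 5 lower, a count with no share over all genes to set it against. The gene called lower was FBXL5 of a ubiquitin ligase (log2 change -0.18, adjusted p = 0.0404). That call was lost when any library other than MAT1A 2 was left out (adjusted p up to 0.169). With the replicate block 2 rose and 3 fell.

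Among ligands, receptors and SMADs of the transforming growth factor beta family, 8 of 23 tested genes fell and 1 rose (median -0.08), against 7.4% and 4.01% of all genes. Without control 1 the counts were 3 and 1, without control 3 they were 5 and 1, and with the muscle covariate 1 and 0. TGFBR2, the type II receptor gene, averaged 120.1 ± 3.20 in MAT1A and 138.0 ± 1.44 in control libraries (SD, n = 3 each; log2 change -0.20, limma adjusted p = 0.000895). INHBA, an activin subunit gene, fell by 0.22 on the log2 scale and SMAD4, the common SMAD, likewise by 0.22. SMAD6, an inhibitory SMAD induced by bone morphogenetic proteins, rose by 0.37 (19.1 ± 1.44 in MAT1A and 14.5 ± 0.518 in control libraries, SD, n = 3 each; limma adjusted p = 0.00211). THBS1, an activator of latent growth factor, was not called (8939 in MAT1A and 8893 in control libraries, log2 change 0.007).

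Among further matrix and mesenchymal markers, of 31 tested, 6 fell and 1 rose, against 7.4% and 4.01% of all genes. Changes below 0 were found for 26 of the 31 and for 48.5% of all genes, and the median was -0.12. Without control 1, 2 fell and 0 rose, with the muscle covariate 1 fell and 0 rose, and with the replicate block 11 fell and 1 rose. AXL, a receptor tyrosine kinase gene, fell by 0.13, and leaving out control 1 or control 3 ended that call (adjusted p up to 0.0605). LOXL1, of a matrix cross-linking oxidase, fell by 0.47, a call that ended without control 3 (adjusted p = 0.0572). WNT5A, a Wnt ligand gene, rose by 0.20, and without control 1 or MAT1A 1 was not called (adjusted p up to 0.0585). TPM2, MYL9 and CDH11 also fell, and TPM2 is also a muscle marker. ACTA2, COL1A2, COL3A1, COL6A3, FBLN1 and MMP2 of this list are also among the fibroblast markers above.

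Genes that process collagen and fibronectin or bind them split evenly: of 25 tested, 3 fell and 3 rose, with a median of -0.009, against 7.4% lower and 4.01% higher over all genes. With the replicate block 7 fell and 6 rose, against 10.4% and 7.57% of all genes, and with the muscle covariate 1 fell and 0 rose. ITGA5, which encodes the alpha chain of the fibronectin receptor, averaged 59.1 ± 1.31 in MAT1A and 72.8 ± 2.44 in control libraries (SD, n = 3 each). It fell by 0.30 on the log2 scale (limma adjusted p = 0.000116; 0.0342 with the muscle covariate), while its partner ITGB1 did not pass (log2 change 0.03, adjusted p = 0.629). The collagen hydroxylase genes P4HA1 (-0.28) and PLOD2 (-0.22) fell, and without control 2 neither was called; P4HA1 was not called without control 1 either. BMP1 (0.18), a procollagen protease gene, CRTAP (0.14) and PPIB (0.11), of the prolyl 3-hydroxylation complex, rose. Without control 3 or without MAT1A 1 the number that rose was 0, and without MAT1A 3 it was 7.

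Of 29 tested epithelial genes that this program is known to repress, 9 rose and 1 fell, with a median log2 change of 0.08, against 4.01% and 7.4% of all genes. Among the 9, CDH1, KRT8 and KRT19 were also counted among the identity genes called higher above, so these lists are not separate evidence. Without control 1 the counts were 6 and 0, without control 3 they were 5 and 0, with the muscle covariate 2 and 0, and with the replicate block 11 and 2. OVOL1, a repressor of ZEB and Snail genes in epithelia, averaged 32.5 ± 2.38 in MAT1A and 23.4 ± 2.44 in control libraries (SD, n = 3 each; log2 change 0.46, limma adjusted p = 0.000345). With the muscle covariate its call was lost (log2 change 0.40, adjusted p = 0.0556). CLDN7, a tight junction claudin gene, rose by 0.29 (adjusted p = 0.000586; 0.000941 with the muscle covariate) and ELF3, an epithelial ETS factor gene, by 0.29. TJP1, the gene of the junction scaffold ZO-1, was the member that fell (-0.13), and its call was lost when any 1 control library or MAT1A 2 was left out (adjusted p up to 0.0971). ESRP1, a splicing factor of epithelial cells, and GRHL2, a keeper of the epithelial state, had log2 changes of 0.04 and 0.05 and were not called.

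**Figure D4:**
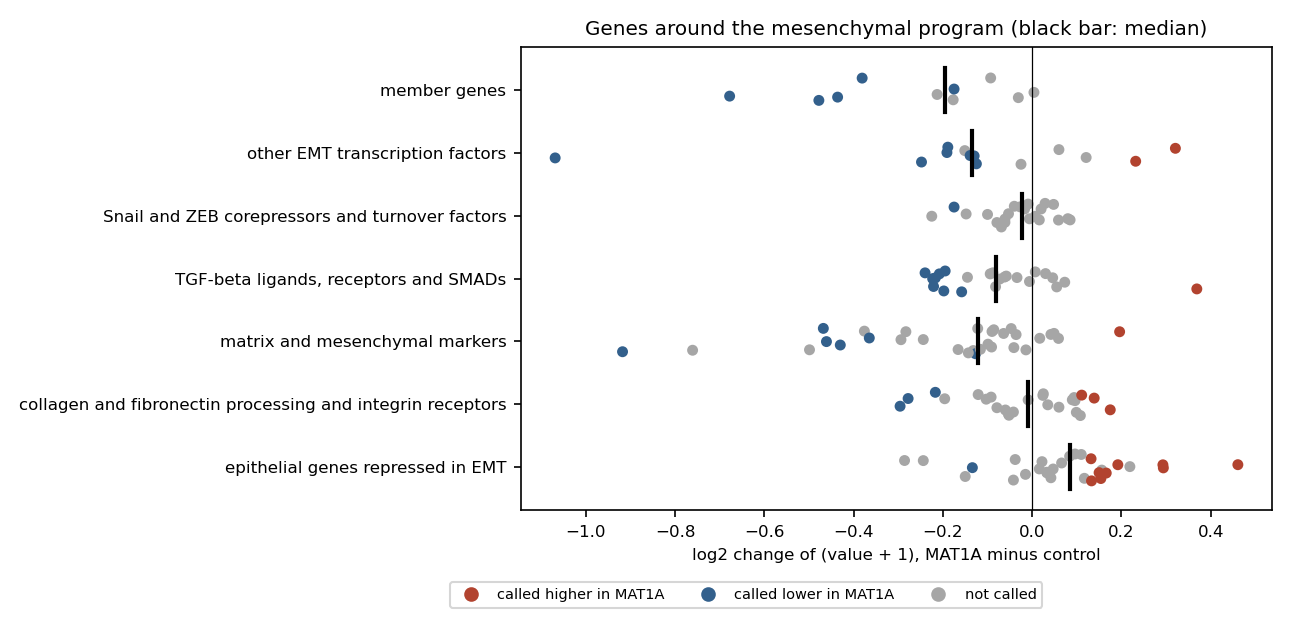
Log2 change of (value + 1), MAT1A minus control (x axis), for each tested gene of the 10 members and of 6 related lists, 1 point per gene (red called higher, blue called lower, grey not called), with the median as a black bar. The medians run from -0.20 for the members to 0.08 for the epithelial genes, and most points lie within 0.3 of 0.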

How the data were processed

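RNA of 3 MAT1A and 3 control libraries was sequenced with 36-cycle reads labelled single-end from a TruSeq kit that does not mark strand, per the labels' protocols. Alignment and counting used STAR 2.6.0c and featureCounts on hg38, with edgeR also named, per the submitters' processing notes; no annotation or setting is named there. The authors deposited a signal, reads per gene on a CPM-like scale with adjusted library sizes, not raw counts. Column sums ran from 997731.8 to 1015443.3. In each column 100.0% of values were whole multiples (tolerance 0.001) of a step taken as 1 read, which served to describe depth, to give the reads behind low values and to compare libraries, and not for the tests of groups. A floor of 3 reads lay between 0.140 and 0.172, covering counting error only, because PCR copies were not marked by molecular identifiers. No row had a total under 25 reads.

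The test was limma 3.58.1 (R 4.3.3) with an intensity trend on log2(value + 1), for genes reaching a value of 1 in 3 or more libraries, with Benjamini-Hochberg adjustment over all tested genes and calls at adjusted p under 0.05. Fold changes understate low genes. The count tests planned for raw counts were not run on these scaled values. The fit was tested on simulated data. The replicate numbers pair the libraries: after removal of group means, same-numbered libraries deviated together across genes (correlations 0.25, 0.18 and 0.19), a pairing seen in the data and not stated by a label, and the fit has no replicate block. Chi-square per degree of freedom on reads was 1.86 to 4.39 for pairs of the same group, above sampling noise. Positions and exons are from GENCODE 29 (GRCh38, the same build as hg38), and promoter windows from RefSeq. In bulk RNA, fewer cells of a type and less RNA per cell cannot be told apart. The 10 members and the lists were chosen with earlier results of these data known. Genes named are all members, MAT1A, up to 3 called genes per direction of each list by smallest p, VIM-AS1, and the 4 nearest profiles of VIM, FN1 and COL1A1; others, such as ZEB1-AS1, COL1A2, COL3A1, THBS1, ITGB1, ESRP1 and GRHL2, were chosen after their values were seen. Some items that this rule would name are not reported here.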

Additional observations from a re-analysis of the deposited data

How the results depend on the processing

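The members called numbered 4 or 5, all lower, under every alternative but the muscle covariate, which left 2 called, 2 lower (VIM and SNAI2); ZEB1 and SNAI1 could not be tested with a filter at a value of 5. The muscle level moves with the groups, so this covariate also takes up part of the group difference. The replicate block changed no member's call and gave 2310 genes called, 974 higher. Over all genes the muscle covariate gave 388 called (83 higher, 305 lower), an adjusted p under 0.01 gave 663 (175 higher, 488 lower), and leaving out MAT1A 1 and control 1 together (pair 1), chosen after seeing the data, gave 545 (114 higher, 431 lower). Leaving out each library in turn gave 796 to 1658 called, 225 to 669 higher and 571 to 989 lower, with 823 without control 1 and 796 without control 3; fewer samples enter these fits. ZEB1 lost its call without pair 1 (log2 change -0.57, adjusted p = 0.0871). The sign of FN1 turned with the muscle covariate (0.070) and among the fits without a library (-0.076 to 0.011), and that of TGFBI with library size without MAT1A (-0.008) and among the fits without a library (-0.008 to 0.013); the cause was not tested. The share of higher calls was 35.1% in the reported fit, 21.4% with the muscle covariate, and 20.9% without pair 1. Other scalings moved the median of all genes by at most 0.011 on the log2 scale. Counts with edgeR, DESeq2 and voom were planned and not run, because the deposited values are not counts. At this depth SNAI1 and ZEB1 rest on 8 to 36 reads a library.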
